A study of Mus musculus with 10 samples.

Results

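The genes described here are an antioxidant module of 33 listed genes. They comprise NRF2 and its inhibitor, genes that NRF2 is known to switch on, and enzymes that make or use glutathione or remove superoxide and peroxides. Members were matched by gene symbol, and each was read by 1 probe set, the brightest on average among those named for that gene alone. Of the 33, 31 were measured among the 19938 genes of the arrays, and G6pdx and Prdx6 were not analysed here. The 5 glutathione transferases are described apart from the other 26 measured members, called the stress genes below.

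The study measured immortalized mouse macrophages on 10 Affymetrix arrays to ask which genes differ between a wild-type B6 line and a Toll-like receptor 9 knockout line (TLR9KO) meeting β-1,3 glucan beads. TLR9 is an endosomal receptor for DNA. The beads carry a fungal cell wall sugar and were given at 20 beads per cell for 4 h. The groups were unstimulated wild type (3 arrays), wild type with beads (3), unstimulated TLR9KO (2) and TLR9KO with beads (2). All 4 groups share the immortalization, and each genotype is represented by a single named line, so genotype and line cannot be told apart. Whether arrays of 1 group stem from different cultures is not stated in the labels, so the p-values cover the spread between arrays alone, which may be technical. In bulk RNA, fewer cells with a transcript and less of it per cell cannot be told apart either.

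NRF2, encoded by Nfe2l2, is a transcription factor that KEAP1 holds in the cytoplasm and hands to the proteasome. Oxidants and electrophiles modify KEAP1, NRF2 then accumulates, and with a small MAF partner it binds antioxidant response elements beside its target genes. Its targets supply glutathione, thioredoxin and NADPH, break down haem and store iron. In macrophages this programme is known for meeting the oxidants of the respiratory burst and for damping inflammation.

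The core of the antioxidant response element can be written TGACNNNGC. It was searched on both strands in the RefSeq windows (GRCm38.p6) from 250 bases before to 50 bases after each start site. Of the 33 members 27 had a window, and 10 of these 27 (37.0%) held the core, against 14.0% of all 27025 genes with a window. Hmox1, Gclc, Gsr, Abcc1, Gsta4 and Prdx6 had no window in the table. A match describes letters and is not evidence of binding. The stretches below are shown because their genes differed between the lines or had the highest values after beads, or, for Prdx1, because it shares its form of the core with Me1. Capitals mark the core, and each stretch is printed on the strand that reads it.
Me1: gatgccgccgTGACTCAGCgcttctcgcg
Prdx1: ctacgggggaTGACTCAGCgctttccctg
Sod1: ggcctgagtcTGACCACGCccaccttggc
Pgd: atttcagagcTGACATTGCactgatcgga
Gclm: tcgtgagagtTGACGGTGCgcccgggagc
Txnrd1: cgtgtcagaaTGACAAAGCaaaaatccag
Srxn1: tgtctcactcTGACCTAGCtgcccactgc
All 7 stretches lie on the minus strand. They are chr9:86695902-86695930 for Me1, chr4:116685456-116685484 for Prdx1, chr16:90220696-90220724 for Sod1, chr4:149166061-149166089 for Pgd, chr3:122245413-122245441 for Gclm, chr10:82859104-82859132 for Txnrd1 and chr2:152105542-152105570 for Srxn1. The form TGACTCAGC, found in Me1 and Prdx1, occurred in 0.454% of all windows. It also contains TGACTCA, the AP-1 site. The remaining 3 members with a core were G6pdx, Mgst1 and Nfe2l2. Of the stretches shown, those of Pgd and Srxn1 lie after the start site, with the core at base 4 and base 29, and the others before it. Pgd, Me1 and Txnrd1 have several start sites with a window, and only 1 window of each held the core.

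Signals were log2 values between 3.08 and 13.8. Wild-type bead array 3 stood apart, with a mean correlation to its own group of 0.973 across genes against 0.985 to 0.997 for the other 9 arrays. Its signals had the smallest SD over genes (1.75 against 1.86 to 2.00 for the other 9) and the highest median over probe sets (6.10). It was the lowest array of its group in 26 of the 31 members, by a median of -0.38 against the mean of arrays 1 and 2. The same count over all genes was not made, so this is not shown to be particular to the members. Of the cell type markers described next, all macrophage markers also read lowest of their group on array 3, as Itgam (9.32 against 10.20 and 10.21). The dimmer lymphocyte and fibroblast and stromal markers all read highest there, as Thy1 (6.63 against 5.61 and 5.60). A lower signal on array 3 was not always a lower rank. Gsr stood at percentile 91.83 of its probe sets, against 91.78 and 91.92 on arrays 1 and 2. The 11 measured macrophage markers averaged 10.2 to 11.1 per array. Dendritic cell (8), granulocyte (10), lymphocyte (9) and fibroblast and stromal markers (10) averaged 4.58 to 5.85, and none passed the test between the lines. Of the macrophage markers, Cd14, Fcgr1, Adgre1 and Csf1r were higher and Mertk lower in the knockout line in both comparisons of the lines, and their part in the results below was not tested. Tlr9 itself read 7.32, 6.91 and 7.25 in wild type against 7.44 and 7.62 in knockout without beads. It was thus not lower in knockout, and its mean was the higher there by 0.37 ± 0.15 (SE) without beads (limma adjusted p = 0.244) and by 0.10 with beads. Neither difference passed. Its probe set may lie outside the deleted part of the gene, whose position the labels do not state, so Tlr9 checks no label.

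Without beads, 7 members differed between the lines, 6 lower and 1 higher in knockout. Hmox1, Slc7a11, Gclc, Gsr, Gpx4 and Gstp1 were lower, and Sod1 was higher. The 7 were 22.6% of the 31 measured members, where 8.25% of all genes tested passed (limma, Benjamini-Hochberg adjusted p under 0.05 over all genes). With beads 8 members differed, 4 in each direction, or 25.8% of the members against 7.22% of all genes. Hmox1, Gclc, Gpx4 and Gstp1 were again lower and Sod1 again higher, and Me1, Pgd and Taldo1 were higher. The members were chosen with earlier results of these data known, so their shares beside those of all genes are a description and test no excess. With genes up to the 25th percentile of mean signal removed, 7 of 30 members and 1592 of 14953 genes passed without beads. With beads these were 8 of 30 and 1389 of 14953. The comparisons without and with beads share no arrays, but they share the fit's estimate of each gene's spread. Over the members the median difference, knockout minus wild type, was -0.02 without and 0.06 with beads, and over all genes 0.02 and -0.01. Members thus lay on both sides of 0.

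The size of these counts rested on single arrays and on the scaling. Without beads, 2 members passed without either unstimulated knockout array, 4 without unstimulated wild-type array 2 or 3 or either knockout bead array, and 14 without wild-type bead array 3. With beads, the count was 4 and 3 when knockout bead array 1 or 2 was left out, and 12 when wild-type bead array 3 was. Over all genes the calls numbered 1645 without beads and 1439 with beads. They rose to 3668 and 4171 once wild-type bead array 3 was dropped. They fell when either knockout array of the comparison was dropped. These swings were thus not particular to the members. Centring on the median split the called members without beads into 0 higher and 2 lower. Centring on the 75th percentile gave 4 and 5, and quantile normalisation 4 and 6. With beads these splits were 1 and 2, 5 and 3, and 7 and 5.

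Neither regulator passed between the lines with all 10 arrays in the fit. Nfe2l2 read 10.47, 10.34 and 10.28 in wild type against 10.69 and 10.66 in knockout without beads, and 10.49, 10.39 and 9.83 against 10.39 and 10.60 with beads. The knockout arrays were the higher without beads, and the groups overlapped with beads. The difference was 0.31 ± 0.18 without beads (adjusted p = 0.494; 95% interval -0.10 to 0.72) and 0.26 ± 0.18 with beads (adjusted p = 0.684). The 0.31 without beads passed when wild-type bead array 3, an array of neither group compared, was left out of the fit (adjusted p = 0.0428). Keap1 lay between 8.44 and 8.55 on all 10 arrays, and its difference without beads had a 95% interval of -0.21 to 0.16.

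Among the genes of haem and iron, Hmox1 was lower in the knockout line with and without beads. Haem oxygenase 1 opens the haem ring to release biliverdin, carbon monoxide and iron. Hmox1 read 11.73, 11.67 and 11.71 in wild type against 10.48 and 10.48 in knockout without beads, and 11.91, 11.94 and 11.67 against 10.99 and 11.01 with beads. The lines did not overlap. Hmox1 was 2.33-fold lower in knockout without beads (-1.22 ± 0.10, SE; adjusted p = 8.94e-05) and 1.79-fold lower with beads (-0.84 ± 0.10; adjusted p = 8.47e-04). It passed in both comparisons under each of the 18 alternatives.

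The other genes of this group did not pass with all 10 arrays in the fit. Blvrb, which reduces biliverdin and flavins, read 9.96, 9.76 and 9.86 in wild type against 10.64 and 10.14 in knockout without beads. The 2 knockout arrays were above the wild-type arrays but lay far apart, and the difference was 0.53 ± 0.21 (adjusted p = 0.201). Ftl1, the ferritin light chain that with the heavy chain stores iron, read 12.13, 12.09 and 12.09 against 12.54 and 12.46 without beads and 12.25, 12.25 and 11.74 against 12.40 and 12.56 with beads. Its difference was 0.40 ± 0.15 in both (adjusted p = 0.184 and 0.199). With wild-type bead array 3 left out, the same differences without beads passed for Blvrb (adjusted p = 0.0384) and Ftl1 (adjusted p = 0.00504). Fth1, the heavy chain, lay between 13.11 and 13.29 on all arrays. Ferritin genes have near-identical copies in the genome, and their probe sets may read these too. Of 4 further Ftl1 probe sets shared with Mir692 genes, differences were 0.41 to 0.47 without and 0.35 to 0.55 with beads. One of these, at 10.58, 10.56 and 10.53 in wild type against 11.10 and 10.94 in knockout without beads, passed over all probe sets (0.47 ± 0.10, adjusted p = 0.0268, and 0.55 ± 0.10, adjusted p = 0.0132, with beads). The other 3 did not pass in either.

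Glutathione supply was the role with the most lower members without beads, 3 of 5. Over all genes, 890 of 19938 were called lower in that comparison, and the role as a whole was not tested. Slc7a11, the cystine importer that feeds glutathione synthesis, read 6.90, 7.63 and 7.05 in wild type against 6.14 and 6.12 in knockout. Array 2 of wild type was the highest, and both knockout arrays lay below all 3. The difference was -1.06 ± 0.26, or 2.09-fold (adjusted p = 0.0346), and without that array it was -0.84 and did not pass (adjusted p = 0.0939). The call also ended without unstimulated wild-type array 3 or any 1 of the 4 knockout arrays (adjusted p = 0.0583 to 0.204). With beads Slc7a11 read 7.65, 7.82 and 7.02 against 6.77 and 6.97, and its difference of -0.63 ± 0.26 did not pass (adjusted p = 0.255). Without wild-type bead array 3 it was -0.86 and passed (adjusted p = 0.0102).

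Gclc and Gclm encode the catalytic and the modifier subunit of glutamate-cysteine ligase, the rate-limiting enzyme of glutathione synthesis, and their values lay on opposite sides of 0. Gclc read 9.65, 9.73 and 9.73 in wild type against 8.96 and 8.96 in knockout without beads, and 10.13, 10.10 and 9.70 against 9.18 and 9.31 with beads. All knockout arrays lay below all wild-type arrays. Gclc was 1.68-fold lower in knockout without beads (-0.75 ± 0.13, adjusted p = 0.00802) and 1.66-fold lower with beads (-0.73 ± 0.13, adjusted p = 0.00918). These calls ended without either knockout array of the comparison (adjusted p = 0.0736 and 0.0735 without beads, 0.102 and 0.0593 with beads). Gclm read 9.48, 9.76 and 9.65 against 9.90 and 9.76 without beads, and 10.08, 10.08 and 9.72 against 10.27 and 10.38 with beads. Its differences of 0.20 ± 0.14 (adjusted p = 0.638) and 0.37 ± 0.14 (adjusted p = 0.191) did not pass. The difference between the subunits was not tested.

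Gsr, glutathione reductase, returns oxidised glutathione to its reduced form with NADPH. It read 9.55, 9.63 and 9.55 in wild type against 9.06 and 9.05 in knockout without beads, and the lines were apart. It was 1.44-fold lower (-0.52 ± 0.12, adjusted p = 0.0315), a call that ended without any 1 of the 3 unstimulated wild-type or the 4 knockout arrays (adjusted p = 0.056 to 0.19). With beads it read 9.71, 9.71 and 9.33 against 9.24 and 9.33, where wild-type bead array 3 overlapped the knockout arrays in log2 signal. By percentile of all probe sets of an array the lines were apart, at 91.78, 91.92 and 91.83 against 90.34 and 89.86. The log2 difference with beads was -0.30 ± 0.12 and did not pass (adjusted p = 0.265). Without wild-type bead array 3 it was -0.43 and did (adjusted p = 0.00423). Gss, glutathione synthetase, read 8.28, 8.52 and 8.35 against 8.16 and 7.83 without beads, a difference of -0.39 ± 0.17 that did not pass (adjusted p = 0.254). Gss with beads differed by -0.34 ± 0.17 (adjusted p = 0.39), and without wild-type bead array 3 by -0.47 and passed (adjusted p = 0.0395).

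None of the 4 measured genes of the thioredoxin branch passed between the lines. Txnrd1, the reductase of thioredoxin, read 10.35, 10.40 and 10.40 in wild type against 10.25 and 10.13 in knockout without beads (-0.19 ± 0.14, adjusted p = 0.647). Srxn1, sulfiredoxin, which restores overoxidised peroxiredoxins, read 8.68, 8.44 and 8.52 against 8.70 and 8.10. The unstimulated knockout arrays of Srxn1 lay on either side of the wild-type arrays. Txn1, thioredoxin itself, and Prdx1, a peroxiredoxin, differed by 0.09 ± 0.09 and -0.07 ± 0.18 without beads. Their 95% intervals ran from -0.10 to 0.29 and from -0.47 to 0.32.

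NADPH is the reductant that glutathione and thioredoxin reductases use. Among the genes grouped here under its supply, 3 of 4 measured members were higher in the knockout line with beads. Over all genes, 761 of 19938 were called higher in that comparison, and the role as a whole was not tested. Of the 3 members, Taldo1 belongs to the non-oxidative arm of the pentose phosphate pathway and does not itself form NADPH. Me1, the cytosolic malic enzyme, read 7.83, 8.02 and 7.94 in wild type against 8.44 and 8.50 in knockout without beads, and 8.17, 8.04 and 7.44 against 8.77 and 8.83 with beads. The lines did not overlap, and wild-type bead array 3 was the lowest of the 10. Me1 was 1.88-fold higher in knockout with beads (0.91 ± 0.19, adjusted p = 0.0176), and without beads the difference of 0.54 ± 0.19 did not pass (adjusted p = 0.144). Without wild-type bead array 3 it was 0.54 without beads and passed (adjusted p = 0.00142), and the call with beads ended without knockout bead array 1 or 2 (adjusted p = 0.109 and 0.146). A second Me1 probe set differed by 0.95 ± 0.20 with beads (adjusted p = 0.029 over all probe sets).

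Pgd and Taldo1 belong to the pentose phosphate pathway. Pgd, 6-phosphogluconate dehydrogenase, makes NADPH in its oxidative arm, and it read 10.75, 10.86 and 10.73 in wild type against 11.09 and 11.14 in knockout without beads. With beads Pgd read 10.88, 10.78 and 10.63 against 11.22 and 11.27. The knockout arrays were above the wild-type arrays throughout, with 0.48 ± 0.10 with beads (1.40-fold, adjusted p = 0.0174) and 0.34 ± 0.10 without (adjusted p = 0.0773). Taldo1, transaldolase of the non-oxidative arm, read 8.77, 8.83 and 8.72 against 9.18 and 9.05 without beads, and 8.70, 8.67 and 8.57 against 9.28 and 9.50 with beads. It was 1.68-fold higher in knockout with beads (0.75 ± 0.10, adjusted p = 0.00187), while the 0.35 ± 0.10 without beads did not pass (adjusted p = 0.0785). Without wild-type bead array 3 the differences without beads were unchanged in size and passed for Pgd (adjusted p = 0.0124) and Taldo1 (adjusted p = 0.022). The call of Pgd with beads ended without knockout bead array 1 or 2 (adjusted p = 0.105 and 0.162) and with bead array 2 of wild type left out (0.0533). Tkt, transketolase of the same arm, differed by -0.06 ± 0.10 and 0.06 ± 0.10, with 95% intervals of -0.29 to 0.17 and -0.17 to 0.29.

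**Figure D1:**
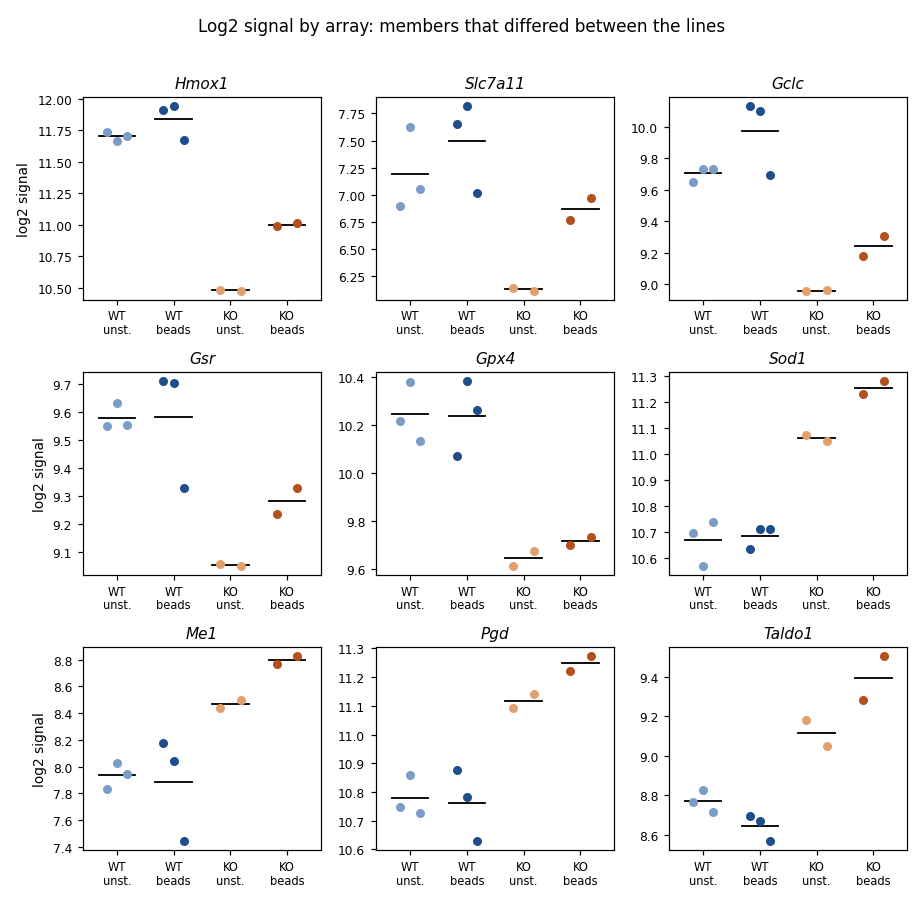
Log2 signal of the 9 stress genes that passed between the lines without or with beads. Points are arrays, lines are group means, WT is wild type, KO is knockout, unst. is unstimulated, and each panel has its own vertical axis. Hmox1, Slc7a11, Gclc, Gsr and Gpx4 lie lower and Sod1, Me1, Pgd and Taldo1 higher in the knockout arrays of the comparison in which they passed.

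Nqo1, a quinone reductase widely used as a readout of NRF2, read 4.38 to 4.78 on all 10 arrays, at percentiles 17.6 to 26.1 of all probe sets of an array. There are no detection calls, so whether Nqo1 was expressed cannot be read from these values. Abcc1, which exports glutathione conjugates, read 10.47, 10.46 and 10.38 against 10.29 and 10.61 without beads (0.01 ± 0.12) and 10.59, 10.55 and 10.37 against 10.75 and 10.72 with beads. Its difference with beads, 0.23 ± 0.12, did not pass (adjusted p = 0.405).

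The enzymes that remove superoxide and peroxides went both ways. Sod1, the cytosolic superoxide dismutase, read 10.70, 10.57 and 10.74 in wild type against 11.07 and 11.05 in knockout without beads, and 10.64, 10.71 and 10.71 against 11.23 and 11.28 with beads. The lines were apart in both. Sod1 was 1.31-fold higher in knockout without beads (0.39 ± 0.09, adjusted p = 0.0259) and 1.48-fold higher with beads (0.57 ± 0.09, adjusted p = 0.00417). The call without beads ended under 10 of the 18 alternatives, among them centring on the median (0.34, adjusted p = 0.219) or the 75th percentile (0.44, adjusted p = 0.0845) and quantile normalisation (0.39, adjusted p = 0.0637). The other 7 left out any 1 of the 3 unstimulated wild-type or the 4 knockout arrays (adjusted p = 0.0505 to 0.178), and the call with beads ended without knockout bead array 2 (adjusted p = 0.0606). Sod2, the mitochondrial dismutase, differed by -0.11 ± 0.14 and -0.03 ± 0.14.

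Gpx4, the peroxidase that reduces lipid hydroperoxides in membranes, read 10.22, 10.38 and 10.14 in wild type against 9.62 and 9.68 in knockout without beads. With beads Gpx4 read 10.07, 10.38 and 10.26 against 9.70 and 9.73. All knockout arrays lay below all wild-type arrays. Gpx4 was 1.51-fold lower without beads (-0.60 ± 0.12, adjusted p = 0.0122) and 1.44-fold lower with beads (-0.52 ± 0.12, adjusted p = 0.0252). The call without beads ended without unstimulated knockout array 1 or 2 (adjusted p = 0.117 and 0.0805). The call with beads ended without knockout bead array 1 or 2 (0.183 and 0.155), unstimulated wild-type array 1 (0.0513) or array 2 of wild type with beads (0.0888). A second Gpx4 probe set differed by -0.61 ± 0.11 (adjusted p = 0.0139 over all probe sets) and -0.47 ± 0.11 (adjusted p = 0.0517). Gpx1, the abundant cytosolic glutathione peroxidase, differed by 0.28 ± 0.18 and 0.14 ± 0.18 and did not pass.

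Cat, catalase, splits hydrogen peroxide into water and oxygen. Its log2 signal was 11.67, 11.35 and 11.50 against 12.09 and 11.96 without beads, and 11.70, 11.61 and 11.16 against 12.01 and 12.11 with beads. The knockout arrays were the higher in both, but the differences of 0.52 ± 0.16 (adjusted p = 0.104) and 0.57 ± 0.16 (adjusted p = 0.0804) did not pass. Without wild-type bead array 3 both did, at 0.52 (adjusted p = 0.00527) and 0.40 (adjusted p = 0.0289).

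**Figure D2:**
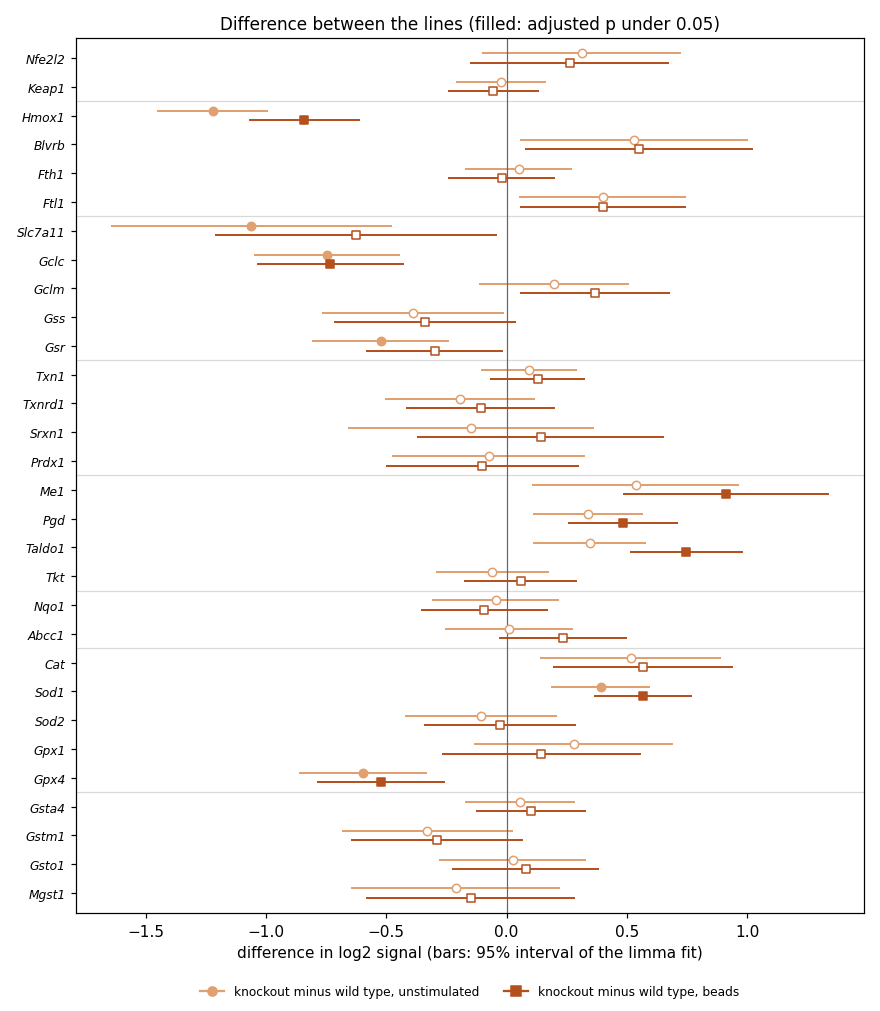
Difference in log2 signal between the lines, knockout minus wild type, for 30 members in the order of their roles. Circles are without beads, squares are with beads, filled symbols passed and bars are 95% intervals of the limma fit. Gstp1, at -5.10 and -5.30, is left out to keep the scale readable, and the remaining members lie between -1.22 and 0.91.

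Gstp1 differed most of all members. It encodes a cytosolic glutathione transferase of the pi class, which joins glutathione to electrophiles. Gstp1 read 10.11, 9.97 and 10.04 in wild type against 4.88 and 5.00 in knockout without beads, and 10.16, 10.20 and 9.65 against 4.72 and 4.69 with beads. The wild-type arrays placed Gstp1 at percentiles 93.4 to 94.3 of all their probe sets and the knockout arrays at 24.5 to 31.0. The signals differed 34.2-fold without beads (-5.10 ± 0.16, adjusted p = 2.72e-07) and 39.4-fold with beads (-5.30 ± 0.16, adjusted p = 2.16e-07). Without detection calls, how much of the knockout signal is background cannot be read, so these folds are of signals and not of transcripts. Gstp1 passed in both comparisons under each of the 18 alternatives.

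Probe sets that Gstp1 shares with its neighbour Gstp2 were also lower in knockout. The first read 7.53, 7.55 and 7.47 in wild type against 5.24 and 5.26 in knockout without beads, and 7.72, 7.81 and 7.10 against 5.21 and 5.01 with beads. The lines did not overlap, and the differences were -2.26 ± 0.19 (adjusted p = 1.63e-04 over all probe sets) and -2.43 ± 0.19 (adjusted p = 1.12e-04). The second set differed by -2.43 ± 0.20 and -2.61 ± 0.20 (adjusted p = 1.64e-04 and 1.14e-04). These sets cannot tell the genes apart, and Gstp2 has no value of its own here. Gstp3, a further pi class gene, read 5.25, 5.00 and 5.24 against 4.93 and 5.18 without beads, and its arrays overlapped (-0.11 ± 0.18, adjusted p = 0.996).

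The start regions of Gstp1 and Gstp2 are shown because the shared probe sets read both genes. Each holds TGACTCA, the AP-1 site, in capitals below, and neither stretch holds the antioxidant response core. This site was searched on both strands and occurred in 5.20% of all windows and in 4 of the 27 members with a window, Gstp1, Me1, Prdx1 and Srxn1. In Me1 and for 1 of the Prdx1 sites it overlaps the core shown above.
Gstp1: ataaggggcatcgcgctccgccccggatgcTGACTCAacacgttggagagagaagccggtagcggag
Gstp2: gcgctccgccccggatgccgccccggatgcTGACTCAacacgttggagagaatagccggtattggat
They lie at chr19:4037950-4038016 and chr19:4042274-4042340, plus strand, in the RefSeq windows of GRCm38.p6. Over the 250 bases before their start sites the genes were identical at 208 of 265 alignment columns (78.5%).

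The other 4 transferases did not pass in either comparison of the lines. Gstm1, of the mu class, read 10.96, 10.65 and 10.75 in wild type against 10.65 and 10.26 in knockout without beads (-0.33 ± 0.16, adjusted p = 0.329), and the groups overlapped. Gsto1, of the omega class, read 9.52, 9.54 and 9.39 against 9.48 and 9.53 (0.03 ± 0.13). Mgst1, a microsomal transferase, read 8.68, 9.03 and 8.65 against 8.69 and 8.46 (-0.21 ± 0.19). Gsta4, an alpha class enzyme active on lipid aldehydes, lay between 5.25 and 5.56 on all arrays, at percentiles 36.5 to 42.3. With beads the differences of these 4 ran from -0.29 to 0.10.

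**Figure D3:**
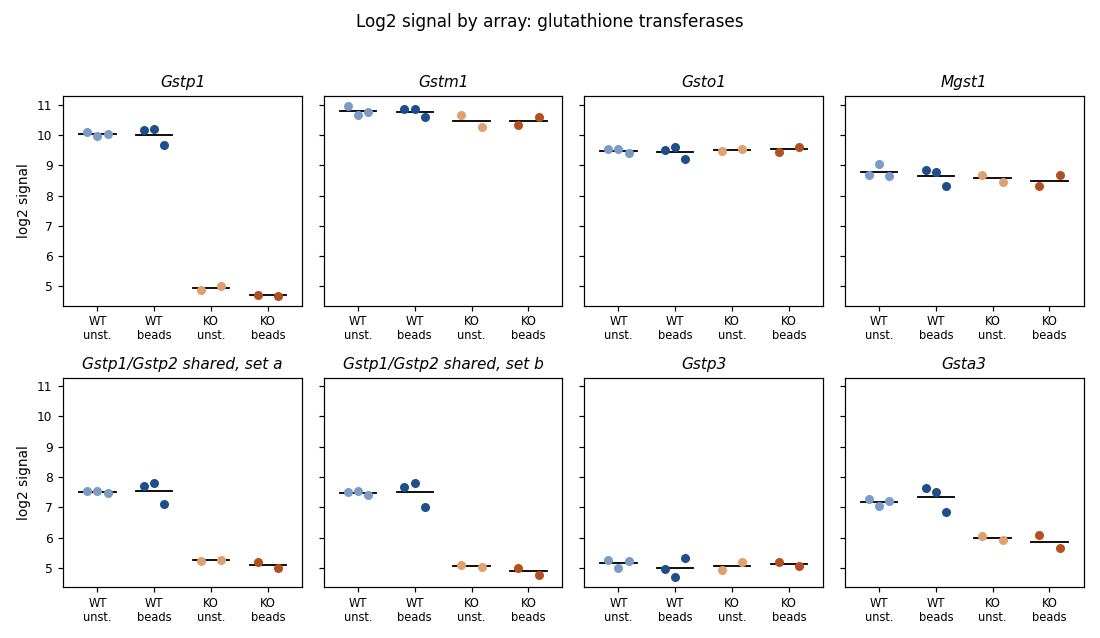
Log2 signal of glutathione transferases by array, with points for arrays and lines for group means. Upper panels show Gstp1, Gstm1, Gsto1 and Mgst1, and lower panels the 2 probe sets shared by Gstp1 and Gstp2, then Gstp3 and Gsta3. Gstp1 lies between 9.65 and 10.20 in wild type (WT) and between 4.69 and 5.00 in knockout (KO), the shared sets and Gsta3 are lower in knockout, and arrays of the lines overlap in the other panels. Levels of different genes are not comparable, since probes differ.

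No member passed limma's test in the bead response of either line. In wild type 0 of the 31 members passed, as did 0% of all genes. In the knockout line 0 members and 0% of all genes passed, and for the difference between the responses of the lines again 0 members and 0% of all genes. At an unadjusted p under 0.05 there were 3 members in wild type (0.838% of all genes tested), 7 in knockout (1.8%) and 2 for the difference between the responses (0.863%). Over all genes these were 167, 359 and 172 genes.

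The 7 members past an unadjusted p of 0.05 in the knockout line all read higher with beads. They were Hmox1 (0.52 ± 0.11), Slc7a11 (0.74 ± 0.28), Srxn1 (0.68 ± 0.25), Gclm (0.50 ± 0.15), Txnrd1 (0.38 ± 0.15), Abcc1 (0.29 ± 0.13) and Taldo1 (0.28 ± 0.11). For Hmox1 the unadjusted p was 0.00106 and the adjusted p 0.756, and for the other 6 the adjusted p was 1. In each of the 7 both bead arrays lay above both unstimulated arrays, as the values above show for Hmox1, Slc7a11, Gclm and Taldo1. The 7 were picked by their p in this same comparison, so that order adds no support for a response. Txnrd1 read 10.25 and 10.13 without and 10.52 and 10.62 with beads, and Srxn1 8.70 and 8.10 without and 8.87 and 9.30 with beads.

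In wild type the 3 members were Gclm (0.33 ± 0.12), Txnrd1 (0.30 ± 0.12) and Gclc (0.27 ± 0.12), each with an adjusted p of 1. In log2 signal their bead arrays 1 and 2 lay above the unstimulated arrays and array 3 among them. Txnrd1 read 10.87, 10.77 and 10.40 with beads against 10.35, 10.40 and 10.40 without. By percentile of all probe sets of an array, array 3 too lay above the unstimulated arrays for these 3 members. Txnrd1 stood at percentiles 96.42, 96.25 and 95.89 with beads against 95.17, 95.19 and 95.44 without. Without wild-type bead array 3, Srxn1 (0.57 ± 0.17), Slc7a11 (0.54 ± 0.18), Gclm (0.45 ± 0.10), Txnrd1 (0.44 ± 0.08), Gclc (0.41 ± 0.08) and Hmox1 (0.22 ± 0.07) were past an unadjusted p of 0.05. These 6 compare with 11.5% of all genes under that fit, and the lowest adjusted p among the members was 0.177. With array weights, which gave array 3 a weight of 0.0701, 17 members and 9174 genes passed in wild type.

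Of the 6 members with the highest values in each bead response, 5 were in both, namely Gclm, Txnrd1, Slc7a11, Srxn1 and Hmox1. These responses share no arrays, and the overlap is a description with no test. Each of the 5 is a gene that NRF2 is known to induce. The list was chosen to hold such genes, so this is set by the list, and NRF2 activity was not tested. The median over the members was 0.003 in wild type and 0.07 in knockout, against 0.01 and 0.004 over all genes. For the difference between the responses, knockout minus wild type, Taldo1 (0.40 ± 0.14, unadjusted p = 0.0209) and Hmox1 (0.38 ± 0.14, unadjusted p = 0.0253) had an adjusted p of 1. No member was thus called as responding differently in the lines, and the 95% interval for Hmox1 ran from 0.06 to 0.70.

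**Figure D4:**
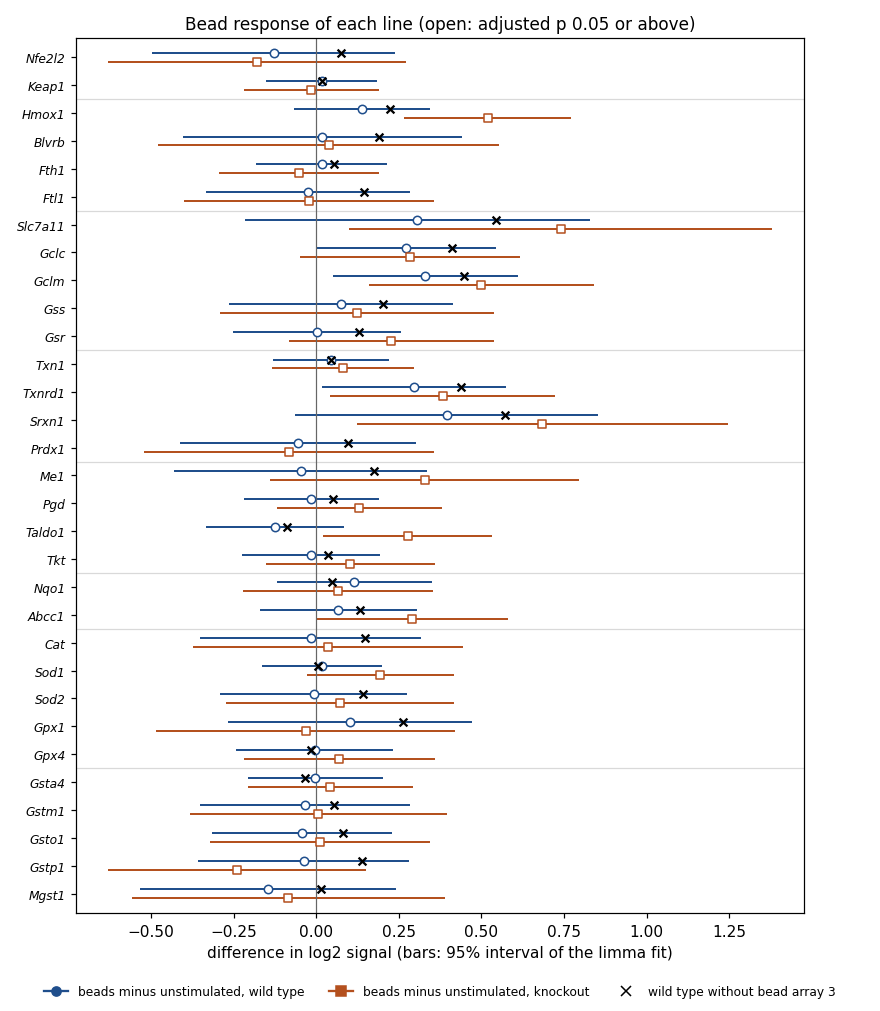
Bead response, beads minus unstimulated, in log2 signal for the 31 members in the order of their roles. Circles are wild type, squares are knockout, bars are 95% intervals of the limma fit, crosses are wild type without bead array 3, and no symbol is filled because none passed. Hmox1 lies at 0.14 in wild type and 0.52 in knockout, and most crosses lie to the right of their circle.

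The other genes of the pathway were taken as 91 listed genes, of which 84 were measured. These lists too were chosen with earlier results of these data known, so the shares below test no excess. Between the lines 2 were higher and 8 lower in knockout without beads (11.9% of 84, where 8.25% of all genes passed), and 3 higher and 8 lower with beads (13.1%, where 7.22% of all genes passed). None of the 11 other regulators, such as Bach1, small MAF genes and Sqstm1, passed. Of 22 further NRF2 targets 4 were lower and 1 higher in both comparisons. Slc40a1, ferroportin, the iron exporter, read 8.21, 8.45 and 8.19 in wild type against 7.08 and 7.11 in knockout without beads. All knockout arrays lay below the wild-type arrays, and Slc40a1 differed by -1.19 ± 0.22 (adjusted p = 0.0105) and, with beads, by -1.54 ± 0.22 (adjusted p = 0.0027).

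Also lower were the carbonyl reductase Cbr1 (-0.86 ± 0.13 without beads), the epoxide hydrolase Ephx1 (-0.70 ± 0.17) and the biliverdin reductase Blvra (-0.60 ± 0.12). With beads their differences were -0.86, -0.85 and -0.64. The aldo-keto reductase Akr1b8 was the higher gene, at 0.88 ± 0.22 (adjusted p = 0.0414) and 1.17 ± 0.22 (adjusted p = 0.0116). Of 33 other glutathione and thioredoxin enzymes, the mitochondrial glutaredoxin Glrx2 (-0.58 ± 0.14 and -0.64 ± 0.14) and the mitochondrial isocitrate dehydrogenase Idh2 (-0.47 ± 0.09 and -0.40 ± 0.09) were lower in both. The cytosolic glutaredoxin Glrx was higher with beads (0.97 ± 0.18, adjusted p = 0.0108), and its 0.50 ± 0.18 without beads did not pass (adjusted p = 0.159).

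Of 18 other transferases, Gsta3 and Gstm2 were lower and Gstm4 higher in knockout in both comparisons. Gsta3 read 7.27, 7.05 and 7.21 in wild type against 6.05 and 5.91 in knockout without beads, and 7.65, 7.52 and 6.85 against 6.08 and 5.66 with beads. The lines did not overlap, and the differences were -1.19 ± 0.23 (adjusted p = 0.0108) and -1.47 ± 0.23 (adjusted p = 0.0038). Gstm2 differed by -0.72 ± 0.15 and -0.60 ± 0.15, and Gstm4 by 0.69 ± 0.15 and 0.91 ± 0.15. None of the 84 genes passed in either bead response or in the difference between them.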

How the data were processed

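The 10 arrays were assigned to 4 groups by the labels alone. The deposited values are log2 signals of probe sets, and per the submitters' processing notes the authors computed them by RMA. RMA subtracts background, brings arrays to a common distribution and summarises probes, which compresses differences of dim probe sets. The deposited arrays nevertheless differed in their median over probe sets (5.75 to 6.10) and in their SD over genes (1.75 to 2.00). For its version, the software, the set of arrays normalised together and any filter: not given in the sources used here. Per the labels, 100 ng of total RNA was amplified and 5.5 µg of cDNA labelled. The number of arrays limits the precision.

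Of 28853 probe sets, 21789 carried 1 gene symbol in the platform annotation, 1621 several and 5443 none, and Entrez IDs gave current symbols for 21698. Each of 19938 genes kept its single-symbol probe set with the highest mean, and none was removed for low signal. Group means were fitted with limma 3.58.1 in R 4.3.3 (lmFit, plain eBayes, residual df 6, prior df 3.23). The 5 contrasts were tested two-sided, with Benjamini-Hochberg adjustment over all genes and calls at adjusted p under 0.05. Shared and second probe sets were adjusted over all probe sets. The fit was tested on simulated data. ± is the SE of the fit, and intervals are 95%.

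Named were all listed members, and from the other pathway lists up to 4 called genes with the largest difference. The members and lists were chosen with earlier results of these data known. Alternatives were other scalings, spread estimates, filters, array weights, the mean of a gene's probe sets, a fit of the compared groups alone and each array left out. Promoter windows came from RefSeq (GRCm38.p6).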

Additional observations from a re-analysis of the deposited data

How the results depend on the processing

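Between the lines, Hmox1 and Gstp1 kept their call and direction under all 18 alternatives with and without beads. Without beads the 7 members and 1645 genes that passed became 2 and 756 after centring on the median, 15 and 4451 with array weights and 13 and 3262 with the compared groups alone, and 2483 genes passed after quantile normalisation. With beads the 8 members and 1439 genes became 3 and 704, 14 and 6083, and 2 and 480 under the same alternatives, and 2263 genes after quantile normalisation. Leaving out each array in turn gave 2 to 14 members and 681 to 3668 genes without beads, and 3 to 12 members and 597 to 4171 genes with beads. The highest of each came without wild-type bead array 3. In wild type the bead response, 0 members and 0 genes in the main fit, had 17 and 9174 with array weights. In knockout it was 0 genes, but 16 with array weights and 0 to 17 leaving out arrays, and the difference between the responses went from 0 genes to 9 with array weights and 0 to 1 leaving out arrays. With array weights the wild-type bead response turned from below 0 to a called value above 0 for Ftl1 (0.15), Sod2 (0.12), Gpx4 (0.19), Gsto1 (0.18) and Gstp1 (0.14). The weights did not fully converge (0.0701 for wild-type bead array 3, 12.1 for array 2). The cause of these changes was not tested.

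Calls of Slc7a11, Gclc, Gsr, Gpx4, Sod1, Me1, Pgd and Taldo1 between the lines each ended under at least 2 alternatives, centring on the median among them except for Sod1 with beads. No paired analysis was possible because replicate numbers here follow accession order and pair no arrays. Groups of 2 and 3 arrays limit what can be called.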
